A study of Mus musculus with 6 samples.

Results

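The matrix metalloproteinases (MMP), the ADAM and ADAMTS proteases and their inhibitors, the tissue inhibitors of metalloproteinases (TIMP), were followed in 3T3L1 cells, mouse preadipocytes in culture that become fat cells when given adipogenic hormones. Genes were taken by name, as table rows whose symbol begins with Mmp, Timp or Adamts, or with Adam and a digit, without the ADAMTS-like genes, and with a normalized value of at least 1 in at least 2 of the 6 samples. Of 79 rows with such a name among the 53342 genes of the table, 51 met this minimum and are the members. They comprise 11 of 16 secreted MMP genes, 6 of 7 membrane-anchored MMP genes, 4 of 4 TIMP genes, 14 of 19 ADAMTS genes and 16 of 33 ADAM genes. Of the 28 rows left out, 20 were at 0 in all 6 samples and 8 were above 0 in 1 sample only. At the edge of the rule, Mmp16 was just inside, with 2.29 in LTK-14A replicate 2, 4.51 in DMSO replicate 2 and 0 in the other samples. Just outside it, the highest single value was 4.29, for Adamts17 in DMSO replicate 1.

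The samples fell into 3 groups of 2: cells differentiated with LTK-14A, cells differentiated with the solvent DMSO, and cells differentiated with no addition, called untreated. The series design names LTK-14A as an inhibitor and DMSO as its solvent control. Neither its dose nor when it was added is stated in the labels. All groups, untreated cells included, received the same hormones, which were insulin (1 µg/ml), IBMX (0.5 mM), which blocks phosphodiesterases, and dexamethasone (1 µM) for 2 days, followed by insulin alone until lipid droplets had formed. No label states that the samples of a group were cultured separately, so p-values below rest on a spread between samples that may be technical. Values below are normalized counts, and fold changes are log2 differences of (value + 1), tested with limma at a Benjamini-Hochberg adjusted p under 0.05 over 24139 genes.

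Metzincins are zinc proteases that cut matrix proteins and the extracellular parts of membrane proteins. Secreted MMPs degrade collagens, gelatin and laminin after their propeptide is removed, and membrane-anchored MMPs act at the cell surface, where Mmp14 activates the Mmp2 proenzyme in a complex with Timp2. ADAM proteases shed growth factors, receptors and adhesion proteins, whereas ADAMTS proteases are secreted and cut proteoglycans and procollagens. TIMPs bind the catalytic site of these enzymes, and Timp3, which is held in the matrix, also inhibits several ADAM and ADAMTS proteases. During fat cell formation the fibroblast-type matrix is replaced by a basement membrane around each adipocyte, and pericellular collagen cleavage by Mmp14 is known to be needed for the growth of fat tissue.

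The libraries held 2737871 to 6388295 steps of the smallest common value, a stand-in for depth since read counts are not given, and listed 21550 to 22289 genes above 1. Ribosomal and small RNA loci took 23.5% of the total in untreated replicate 2, against 14.0% to 17.5% in the other 5 libraries. That library stood apart, and results against untreated cells are also given without it. All 12 adipocyte markers were detected in every group. Their summed values were 35307 and 37894 with LTK-14A, against 100180 and 94210 with DMSO and 110930 and 83320 in untreated cells, and all 12 were lower with LTK-14A than with DMSO. Lpl made up most of that sum, with 31156 and 33068 with LTK-14A, against 58040 and 52834 with DMSO. It changed least of the 12 (log2 fold change -0.79, adjusted p = 0.0491, limma). The median log2 fold change of the 12 was -3.63, so the sum understates the change of most of them. Of 12 fibroblast and preadipocyte markers, 4 were higher and 0 lower (summed values 137810 and 144360 with LTK-14A, 89935 and 97683 with DMSO, 94989 and 151090 in untreated cells). Their median log2 fold change against DMSO was 0.52, and the markers that did not pass lay on both sides of 0. Over all genes tested, 3.98% passed higher and 6.58% lower in LTK-14A against DMSO. Fewer cells of a type and less RNA per cell cannot be told apart in such bulk samples, and the part of these marker shifts in the results below was not tested.

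In LTK-14A against DMSO, 13 of the 51 members passed the threshold, 7 higher and 6 lower (25.5%, against 10.6% of all genes tested). By direction, 3.98% of all genes tested were higher and 6.58% lower. The members that rose were Mmp11, Mmp2, Timp1, Adam8, Adamts1, Adam9 and Adam23, and those that fell were Adamts9, Timp4, Adamts12, Mmp28, Adam12 and Adam1a. The median log2 fold change was 0.06 over the members and -0.05 over all genes tested. For 37 of 51 members every LTK-14A value lay on the same side of both DMSO values, as it did for 54.3% of all genes tested. All 13 calls were among the 35 members with a mean of at least 20 over the 6 samples, of which 37.1% passed, against 17.1% of the 13179 genes at that level. Of the 16 members with a lower mean, 0 passed in limma and 2 had an unadjusted p under 0.05, and among all genes at that level 2.64% passed. Of the 10960 genes at that level, 1601 had an unadjusted p under 0.05. With limma run without the mean-variance trend, 3 of the 13 calls were kept, those of Mmp11, Mmp2 and Adam8, and 4 of the 15 against untreated cells, those of Mmp11, Mmp2, Adam8 and Adamts9.

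**Figure D1:**
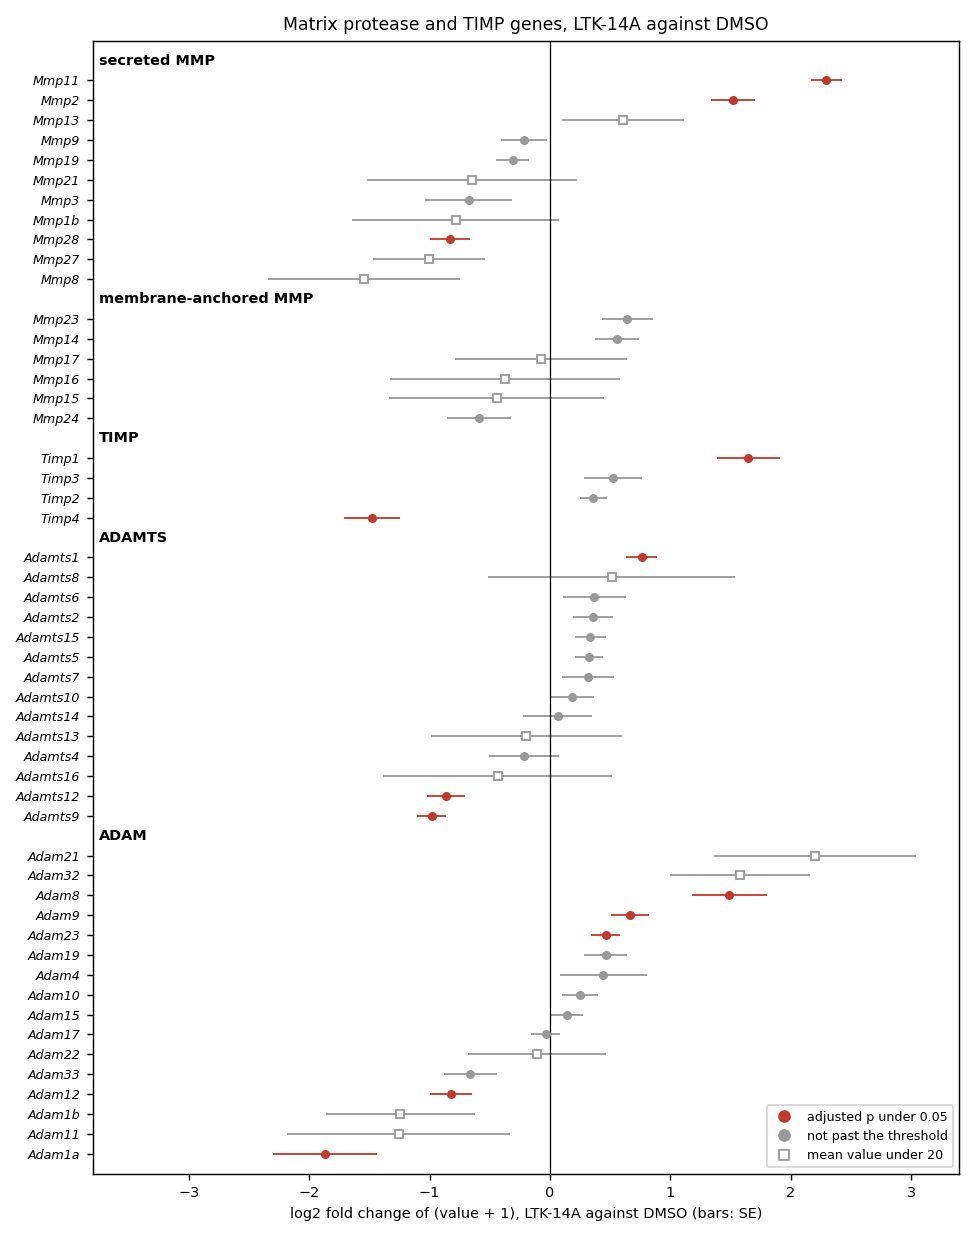
Log2 fold change of (value + 1) for each of the 51 members in LTK-14A against DMSO, grouped by family, with bars for the standard error (2 samples a group). Red points passed an adjusted p under 0.05, and open squares are members with a mean value under 20, none of which passed; Mmp11 lies furthest to the right of the members that passed and Adam1a furthest to the left.

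Levels were compared between genes per kilobase of exon, on the scale of normalized counts. Mmp2, the gelatinase that cuts denatured collagen and basement membrane collagen, had the highest level per kilobase in all 3 groups, with means of 10354 with LTK-14A, 3613 with DMSO and 4051 in untreated cells. Mmp14, Timp2 and Adamts1 followed with levels near each other. Mmp14 had 1099.8 and 1149 per kilobase with LTK-14A, 736 and 794 with DMSO and 672 and 996.5 in untreated cells. Timp2 had 1061 and 1052 per kilobase with LTK-14A, 795 and 852 with DMSO and 718 and 799 in untreated cells. Adamts1 had 1136 and 1024 with LTK-14A, 646 and 628.5 with DMSO and 495 and 586 in untreated cells. With LTK-14A, Adamts1 overlapped both Timp2 and Mmp14, and Mmp14 lay just above Timp2. With DMSO both Timp2 values lay just above those of Mmp14, and in untreated cells these genes overlapped, so they kept no one order over the 3 groups. Mmp11 followed with 577 per kilobase with LTK-14A, against 117 with DMSO and 124 in untreated cells. Of the 51 members, 6 had a mean of at least 1000 normalized counts, 20 a mean of 100 to 1000, 9 a mean of 20 to 100 and 16 a mean under 20.

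**Figure D2:**
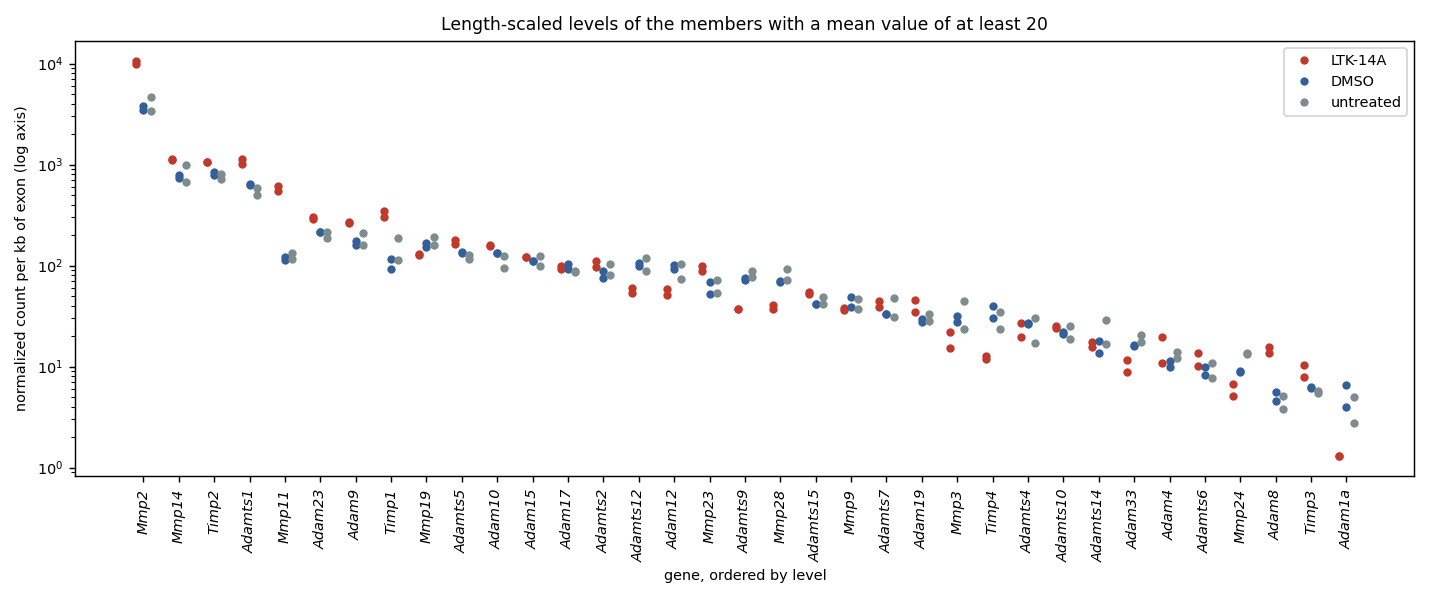
Normalized count per kilobase of exon, on a log axis, for the 35 members with a mean value of at least 20, ordered by their mean over the 6 samples. Each point is 1 sample (red LTK-14A, blue DMSO, grey untreated); Mmp2 stands above all others in every group.

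Upstream sequence was available for 32 of the 51 members, 10 of them among the 13 that changed, in RefSeq's promoter table on GRCm38.p6. The 250 bases before the annotated start are shown for Mmp11 and Timp1, which rose, for Timp4, which fell, and for Mmp3 and Mmp13, which lie together on chromosome 9 and did not pass the threshold. Sequences run 5′ to 3′ on the gene's own strand, and capitals mark the motifs searched, on either strand. They were read at chr10:75932503-75932752 (minus strand), chrX:20869916-20870165 (plus), chr6:115252206-115252455 (minus), chr9:7445572-7445821 (plus) and chr9:7272264-7272513 (plus).
Mmp11: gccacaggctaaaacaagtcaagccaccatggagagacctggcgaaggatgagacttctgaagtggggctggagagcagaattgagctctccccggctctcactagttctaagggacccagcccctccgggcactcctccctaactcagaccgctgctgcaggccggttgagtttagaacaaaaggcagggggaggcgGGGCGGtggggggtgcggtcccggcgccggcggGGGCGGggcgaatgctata
Timp1: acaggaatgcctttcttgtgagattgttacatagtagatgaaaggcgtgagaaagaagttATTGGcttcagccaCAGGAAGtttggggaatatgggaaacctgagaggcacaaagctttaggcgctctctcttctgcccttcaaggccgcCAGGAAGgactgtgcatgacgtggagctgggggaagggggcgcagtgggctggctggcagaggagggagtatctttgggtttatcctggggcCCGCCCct
Timp4: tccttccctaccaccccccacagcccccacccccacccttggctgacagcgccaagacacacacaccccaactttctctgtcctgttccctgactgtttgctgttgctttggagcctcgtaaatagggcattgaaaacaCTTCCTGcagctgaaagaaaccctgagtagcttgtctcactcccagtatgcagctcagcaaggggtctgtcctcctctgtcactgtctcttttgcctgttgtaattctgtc
Mmp3: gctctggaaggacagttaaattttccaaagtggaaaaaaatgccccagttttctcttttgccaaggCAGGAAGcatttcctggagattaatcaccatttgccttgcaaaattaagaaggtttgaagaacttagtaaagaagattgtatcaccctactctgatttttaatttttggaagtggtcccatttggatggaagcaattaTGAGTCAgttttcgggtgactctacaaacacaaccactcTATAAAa
Mmp13: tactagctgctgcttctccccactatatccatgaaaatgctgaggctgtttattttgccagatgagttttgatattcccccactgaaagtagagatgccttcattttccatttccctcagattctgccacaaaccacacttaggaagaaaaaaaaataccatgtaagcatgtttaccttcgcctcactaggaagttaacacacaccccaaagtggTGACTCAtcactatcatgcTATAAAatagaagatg

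The RefSeq start used for Mmp11 lies inside the gene's span in the deposited table, while the other 4 windows end at the table's own gene start. In Mmp11 the capitals are a pair of GC boxes (GGGCGG). The Timp1 window holds a CCAAT box, ETS-type motifs (CAGGAAG) and a GC box close to the start, and the Timp4 window holds 1 ETS-type motif on the other strand. Mmp3 and Mmp13 each carry an AP-1 motif (TGANTCA) followed by a TATA box (TATAAA), and Mmp3 also an ETS-type motif. Over the 32 members with a window, AP-1 motifs were found in 4 (Adam19, Mmp13, Mmp1b and Mmp3), against 6.75% of the 32851 promoters in the table. Adam19 and Mmp23 have several windows, and a member was counted when any of its windows held the motif. The shares of all promoters are per window, so these 2 measures are not quite alike. None of these 4 genes passed in LTK-14A against DMSO (limma), with log2 fold changes of 0.46 for Adam19, 0.61 for Mmp13, -0.78 for Mmp1b and -0.68 for Mmp3. The TATA box was found in 5 members (12.4% of all promoters), of which Adamts1 rose. GC boxes were found in 16 members (32.7% of all promoters), in 4 of the 5 members that rose and had a window and in 2 of the 5 that fell. CCAAT boxes were in 8 members (33.9%) and ETS-type motifs in 9 (10.8%). The PPAR-RXR direct repeat (0.0335% of all promoters) was found in 0 of the 32 members. The pattern TTGCNNCAA, used here for C/EBP sites (1.74%), was also found in 0 of the 32. Other spellings of the C/EBP site were not searched, so that 0 does not speak to C/EBP sites in general. Each match describes letters in these windows and is no evidence of a bound factor.

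Among the secreted MMPs, Mmp11 and Mmp2 rose and Mmp28 fell. Mmp11 (ENSMUSG00000000901, chromosome 10, 75923222 to 75936496, minus strand in mm10), stromelysin 3, is an MMP released in active form by fibroblasts and is known in mice as a negative regulator of fat cell differentiation. It had 1698.5 and 1509 normalized counts with LTK-14A, 336 and 315 with DMSO and 321 and 369 in untreated cells. Both LTK-14A samples were thus far above the other 4, which lay close together (log2 fold change 2.30, SE 0.13, adjusted p = 0.000125, limma, a 4.91-fold difference). Mmp2 (ENSMUSG00000031740, chromosome 8, 92827291 to 92853420, plus strand) had 33653 and 36155 with LTK-14A, 11588 and 12768 with DMSO and 11500 and 15811 in untreated cells. The LTK-14A samples were again the highest, with untreated replicate 2 between them and the remaining 3 (log2 fold change 1.52, SE 0.18, adjusted p = 0.00252, limma). Mmp28 (ENSMUSG00000020682, chromosome 11, 83440768 to 83463071, minus strand), or epilysin, an MMP of keratinocytes and several other tissues, had 143 and 157 with LTK-14A, 264 and 271 with DMSO and 281 and 359 in untreated cells. Its LTK-14A samples were the lowest of the 6 (log2 fold change -0.83, SE 0.16, adjusted p = 0.0203, limma). Against untreated cells the log2 fold change was 2.21 for Mmp11 (adjusted p = 0.000116, limma), 1.37 for Mmp2 (adjusted p = 0.00330) and -1.08 for Mmp28 (adjusted p = 0.00597).

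The calls of Mmp11 and Mmp2 against DMSO held when any 1 of the LTK-14A and DMSO libraries was left out (adjusted p 0.00382 to 0.00678 for Mmp11 and 0.0410 to 0.0491 for Mmp2, limma). That of Mmp28 was lost without each of these 4 libraries (0.104 to 0.153). Against untreated cells, the call of Mmp2 was lost without LTK-14A replicate 2 (adjusted p = 0.0509, limma) and that of Mmp28 without either LTK-14A library (up to 0.0730). Of the exons of Mmp28, 12.0% overlap a gene on the other strand, and of those of Mmp11 5.58% do.

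The other 8 secreted MMPs detected did not pass the threshold. Mmp19, a basement membrane protease, had 461 and 446 with LTK-14A, 590.3 and 537 with DMSO and 682 and 561 in untreated cells, and its LTK-14A samples were the lowest (log2 fold change -0.31, SE 0.14, adjusted p = 0.206, limma). The second gelatinase, Mmp9, had 128 and 135 with LTK-14A, 137 and 171 with DMSO and 133 and 167 in untreated cells. Its LTK-14A samples lay within the range of the other groups or just below it (log2 fold change -0.22, SE 0.19, adjusted p = 0.547, limma). Mmp3, stromelysin 1, had 39.5 and 27.4 with LTK-14A, 49.3 and 57.6 with DMSO and 42.7 and 80.5 in untreated cells (log2 fold change -0.68, SE 0.36, adjusted p = 0.296, limma). These LTK-14A values of Mmp3 were lower than all others without passing the test. The collagenases Mmp13 and Mmp8, together with Mmp27, Mmp21 and Mmp1b, reached at most 25.8 normalized counts, in Mmp27 in untreated replicate 1.

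The secreted MMP genes of chromosome 9 lie side by side over 427 kb (7272514 to 7699585 in mm10). Of the 10 rows there, 5 were detected, and only Mmp3 had a mean of at least 20 over the 6 samples. The highest single value in the cluster was 80.5, for Mmp3 in untreated replicate 2. The changed secreted MMPs, Mmp2, Mmp11 and Mmp28, all lie on other chromosomes. Undetected rows included Mmp7 and the stromelysin Mmp10, as well as Mmp1a and the enamel protease Mmp20, with Mmp12, the macrophage elastase, listed above 0 in 1 sample only.

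Of the 6 membrane-anchored MMPs detected, 0 passed in LTK-14A against DMSO (limma), and 2 had an unadjusted p under 0.05. Mmp14 (ENSMUSG00000000957, chromosome 14, 54431612 to 54445364, plus strand), the membrane collagenase that activates the Mmp2 proenzyme, had 6554.5 and 6847 with LTK-14A, 4385 and 4734 with DMSO and 4003 and 5939 in untreated cells. Its LTK-14A samples were the highest of the 6, but untreated replicate 2 came close to them (log2 fold change 0.56, SE 0.18, adjusted p = 0.105, limma). Mmp14 passed when only genes with a mean of at least 20 were tested (adjusted p = 0.0370) and when either untreated library, or both, left the fit (adjusted p 0.00360 to 0.00481). Mmp23 had 209 and 233 with LTK-14A, 124 and 160.2 with DMSO and 126 and 168 in untreated cells, again highest with LTK-14A (log2 fold change 0.64, SE 0.21, adjusted p = 0.0989, limma). Mmp24, a membrane MMP known from nerve tissue, had 31.7 and 24.1 with LTK-14A, 41.8 and 42.3 with DMSO and 62.0 and 64.2 in untreated cells. It was lowest with LTK-14A and fell against untreated cells (log2 fold change -1.16, SE 0.27, adjusted p = 0.0304, limma), a call that was lost without each of the 4 libraries compared (0.0584 to 0.151). Against DMSO its log2 fold change was -0.59 (adjusted p = 0.218, limma). The other 3, Mmp15, Mmp16 and Mmp17, reached at most 5.40 normalized counts.

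Among the 4 TIMP genes, Timp1 rose and Timp4 fell in LTK-14A against DMSO. Timp1 (ENSMUSG00000001131, chromosome X, 20870166 to 20874735, plus strand), a soluble inhibitor that is induced in many cells by growth factors and cytokines, had 310.3 and 271 with LTK-14A, 104 and 81.3 with DMSO and 101 and 168 in untreated cells. Both LTK-14A samples were above all others, and untreated replicate 2 was the highest of the rest (log2 fold change 1.65, SE 0.26, adjusted p = 0.00856, limma). Timp4 (ENSMUSG00000030317, chromosome 6, 115241892 to 115252205, minus strand), the TIMP with the most restricted expression and known from heart, brain and fat tissue, had 69.9 and 75.0 with LTK-14A, 179 and 232 with DMSO and 206 and 140.1 in untreated cells. Here the LTK-14A samples were below all others, as the summed adipocyte markers were (log2 fold change -1.48, SE 0.23, adjusted p = 0.00815, limma). Timp2 (ENSMUSG00000017466, chromosome 11, 118301069 to 118355740, minus strand), which takes part in the activation of the Mmp2 proenzyme, had 4133 and 4098 with LTK-14A, 3098 and 3321 with DMSO and 2798 and 3114 in untreated cells. Its LTK-14A samples lay above the other 4, and it rose against untreated cells (log2 fold change 0.48, SE 0.11, adjusted p = 0.0334, limma) but did not pass against DMSO (log2 fold change 0.36, SE 0.11, adjusted p = 0.0918). Timp3 (ENSMUSG00000020044, chromosome 10, 86300372 to 86349506, plus strand) had 63.9 and 83.6 with LTK-14A, 50.4 and 50.7 with DMSO and 46.4 and 44.3 in untreated cells, highest with LTK-14A without passing (log2 fold change 0.52, SE 0.24, adjusted p = 0.226, limma).

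Against untreated cells, Timp1 rose by 1.15 on the log2 scale (adjusted p = 0.0290, limma) and Timp4 fell by 1.22 (adjusted p = 0.0150). The call of Timp1 against DMSO was lost without each of the 4 LTK-14A and DMSO libraries (adjusted p 0.0521 to 0.103), and that of Timp4 held only without DMSO replicate 1 (0.0480 to 0.0918). Against untreated cells the calls of Timp1, Timp2 and Timp4 did not hold when either LTK-14A library was left out (adjusted p up to 0.192, 0.195 and 0.121).

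Timp1, Timp3 and Timp4 each lie within a synapsin gene, on the opposite strand, and Timp2 does not. Syn2, which holds Timp4, had 66.0 and 52.5 normalized counts with LTK-14A, 389 and 502 with DMSO and 503 and 331 in untreated cells, lower with LTK-14A as Timp4 was. Syn3, which holds Timp3, had 24.3 and 19.5 with LTK-14A, 6.44 and 7.90 with DMSO and 12.4 and 11.1 in untreated cells, highest with LTK-14A. Syn1, which holds Timp1, had 7.29 and 10.7 with LTK-14A, 8.42 and 3.79 with DMSO and 8.29 and 14.5 in untreated cells, values that overlap between the groups while those of Timp1 do not. Exons of the TIMP gene that overlap the host's exons made up 0% for Timp1, 1.53% for Timp4 and 21.3% for Timp3. No source used here states whether the authors' counting used strand, so reads in the shared part of Timp3 and Syn3 cannot be told apart. Whether reads from the introns of a host gene entered the values of Timp1, Timp3 or Timp4 was not tested.

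**Figure D3:**
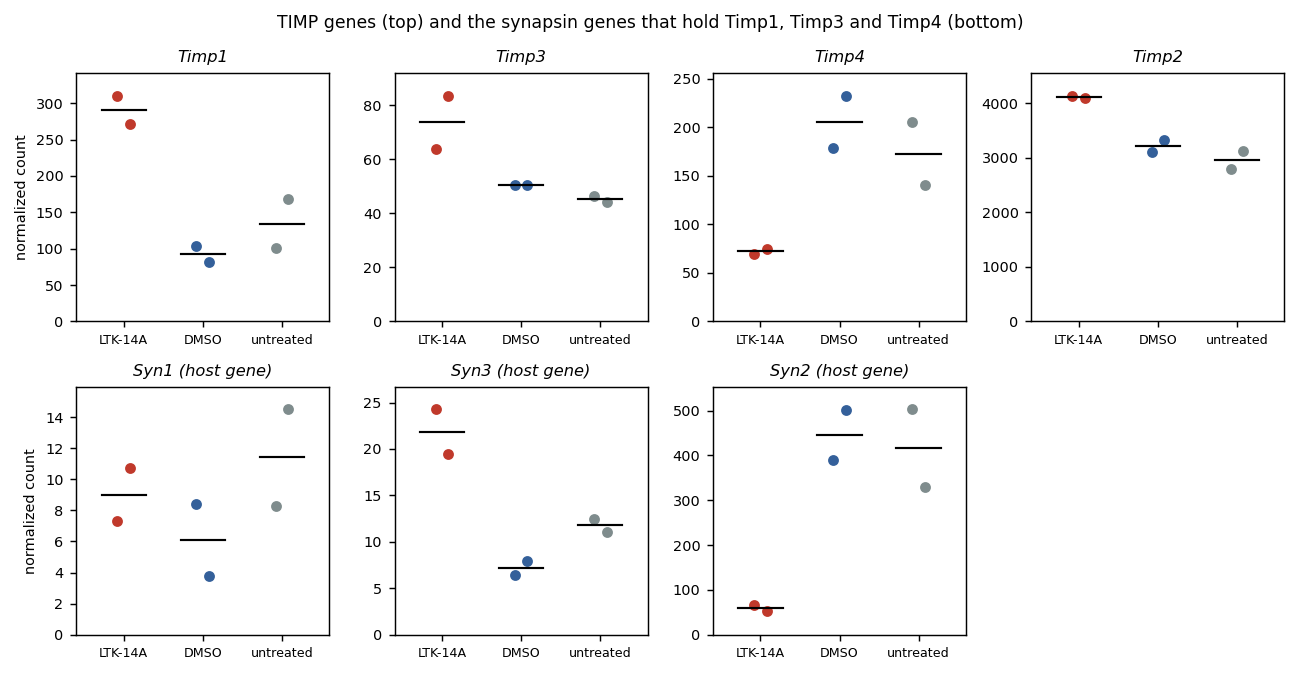
Normalized counts of the 4 TIMP genes (top) and of the synapsin genes in which Timp1, Timp3 and Timp4 lie (bottom), with each sample as a point and the group mean as a line. Timp1 is high and Timp4 low with LTK-14A, and Syn2 is low there as well.

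Summed per kilobase of exon, the MMP transcripts came to 12028 and 12757 with LTK-14A, against 4678 and 5093 with DMSO and 4615 and 6268 in untreated cells. The TIMP sum was 1430 and 1380 with LTK-14A, against 949 and 990 with DMSO and 872 and 1018 in untreated cells. Per unit of TIMP transcript, there were thus 8.41 and 9.24 units of MMP transcript with LTK-14A, against 4.93 and 5.15 with DMSO and 5.29 and 6.16 in untreated cells. Mmp2 alone made up 83.0% and 84.1% of the MMP sum with LTK-14A, against 73.5% and 74.4% with DMSO and 73.9% and 74.8% in untreated cells. Without Mmp2, the ratio was 1.43 and 1.47 with LTK-14A, 1.31 and 1.32 with DMSO and 1.38 and 1.55 in untreated cells, so the LTK-14A and untreated ranges overlapped. These sums describe transcripts, not enzyme activity, and are given with no test.

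Among the 14 ADAMTS genes detected, Adamts1 rose while Adamts9 and Adamts12 fell. Adamts1 (ENSMUSG00000022893, chromosome 16, 85793827 to 85803113, minus strand), a protease that cuts the proteoglycans aggrecan and versican, had 6025 and 5431 with LTK-14A, 3425 and 3332 with DMSO and 2624 and 3109 in untreated cells. The LTK-14A samples were the highest and the DMSO samples lay above the untreated ones (log2 fold change 0.76, SE 0.13, adjusted p = 0.0109, limma). Adamts9 (ENSMUSG00000030022, chromosome 6, 92772699 to 92943492, minus strand), which also cuts versican and aggrecan, had 554 and 562 with LTK-14A, 1129.8 and 1079 with DMSO and 1334 and 1150.3 in untreated cells. Its LTK-14A samples nearly coincided and were the lowest of the 6 (log2 fold change -0.98, SE 0.12, adjusted p = 0.00291, limma). Adamts12 (ENSMUSG00000047497, chromosome 15, 11064790 to 11349231, plus strand), known to cut cartilage oligomeric matrix protein, had 585 and 653 with LTK-14A, 1169 and 1083.5 with DMSO and 1286 and 958 in untreated cells. LTK-14A samples were again the lowest (log2 fold change -0.86, SE 0.16, adjusted p = 0.0160, limma). Adamts5 (ENSMUSG00000022894, chromosome 16, 85858170 to 85901125, minus strand), the main aggrecanase of mouse cartilage, had 1919 and 1749.5 with LTK-14A, 1475 and 1452.5 with DMSO and 1384 and 1253 in untreated cells. The LTK-14A samples were above the other 4, and Adamts5 rose against untreated cells (log2 fold change 0.48, SE 0.11, adjusted p = 0.0345, limma) but did not pass against DMSO (log2 fold change 0.32, adjusted p = 0.121).

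Adamts1 and Adamts5 are neighbours on chromosome 16, with 55.1 kb between them, and both had their highest values with LTK-14A. The versican-cutting Adamts1 and Adamts9 moved in opposite directions, with log2 fold changes against untreated cells of 1.00 (adjusted p = 0.00305, limma) for Adamts1 and -1.15 (adjusted p = 0.00124) for Adamts9, and Adamts12 fell by 0.84 (adjusted p = 0.0144). Versican (Vcan), a known target of Adamts1 and Adamts9, had 11226 and 11049 with LTK-14A, 8857 and 7569 with DMSO and 7156 and 5648 in untreated cells (log2 fold change 0.44, SE 0.15, adjusted p = 0.117, limma). It rose against untreated cells (log2 fold change 0.81, adjusted p = 0.0149). Against DMSO the call of Adamts9 was lost without LTK-14A replicate 1 only (adjusted p = 0.0515), and those of Adamts1 (0.0728 to 0.127) and Adamts12 (0.0910 to 0.146) were lost without each of the 4 libraries. Against untreated cells, Adamts9 held throughout (0.000866 to 0.0295), Adamts1 was lost without LTK-14A replicate 1 (0.0546), and Adamts5 and Adamts12 were lost without either LTK-14A library (up to 0.228 and 0.134). Of the exons of Adamts9, 12.0% overlap genes on the other strand.

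None of the other 10 ADAMTS genes detected passed in any comparison (limma). Adamts2, which removes the N-terminal propeptide of fibrillar procollagens, had 899.9 and 1045 with LTK-14A, 698 and 822 with DMSO and 746 and 965 in untreated cells (log2 fold change 0.36, SE 0.16, adjusted p = 0.227, limma). Adamts15 had 562 and 537 with LTK-14A, 435 and 436 with DMSO and 434 and 506 in untreated cells, a small separation without a call (log2 fold change 0.34, SE 0.13, adjusted p = 0.147, limma). The aggrecanase Adamts4 had 94.6 and 129 with LTK-14A, 129 and 128 with DMSO and 81.7 and 144 in untreated cells, all overlapping. Adamts6, Adamts7, Adamts10 and Adamts14 had log2 fold changes of 0.06 to 0.37 against DMSO. Adamts8, Adamts13 (the von Willebrand factor protease) and Adamts16 reached at most 5.40 normalized counts.

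Among the 16 ADAM genes detected, Adam8, Adam9 and Adam23 rose and Adam12 and Adam1a fell. Adam8 (ENSMUSG00000025473, chromosome 7, 139978932 to 139992562, minus strand), a sheddase best known from leukocytes, had 63.6 and 72.6 with LTK-14A, 25.9 and 21.4 with DMSO and 17.8 and 23.9 in untreated cells. Both LTK-14A samples were well above all others (log2 fold change 1.49, SE 0.31, adjusted p = 0.0242, limma). The leukocyte markers beside it did not move together. The pan-leukocyte gene Ptprc and the myeloid integrin gene Itgam were at 0 in all 6 samples, and Lyz2 was listed at 0 in both LTK-14A samples, against 12.7 and 9.21 with DMSO and 9.58 and 12.2 in untreated cells. Cd68, a lysosomal protein used as a macrophage marker, had 62.3 and 67.2 with LTK-14A, 14.9 and 16.6 with DMSO and 11.1 and 8.29 in untreated cells (log2 fold change 1.97, SE 0.35, adjusted p = 0.0133, limma). Of the 8 leukocyte markers, 5 were tested, 1 rose and 1 fell, and their summed values were 159 and 150.2 with LTK-14A, 143 and 156 with DMSO and 121 and 155 in untreated cells. Of all genes tested, 10.6% passed in LTK-14A against DMSO.

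Adam9 (ENSMUSG00000031555, chromosome 8, 24949611 to 25016927, minus strand), a widely expressed sheddase, had 1120.2 and 1076 with LTK-14A, 727 and 661 with DMSO and 652 and 871 in untreated cells. Its LTK-14A samples were the highest (log2 fold change 0.66, SE 0.16, adjusted p = 0.0377, limma). Adam23 (ENSMUSG00000025964, chromosome 1, 63445891 to 63596276, plus strand), which lacks the residues for catalysis and binds integrins, had 5169 and 5453 with LTK-14A, 3890.3 and 3819 with DMSO and 3366 and 3867 in untreated cells. It passed the threshold only just (log2 fold change 0.46, SE 0.12, adjusted p = 0.0499, limma). Adam12 (ENSMUSG00000054555, chromosome 7, 133883199 to 134232146, minus strand), or meltrin alpha, a protease studied in muscle and fat cell formation, had 546 and 616 with LTK-14A, 988 and 1063 with DMSO and 1096 and 777 in untreated cells. The LTK-14A samples were the lowest, with untreated replicate 2 nearest to them (log2 fold change -0.82, SE 0.17, adjusted p = 0.0262, limma). Adam1a (ENSMUSG00000072647, chromosome 5, 121518576 to 121522071, minus strand), known from mouse sperm as fertilin alpha, had 9.76 and 9.79 with LTK-14A, 29.9 and 49.2 with DMSO and 20.6 and 37.7 in untreated cells (log2 fold change -1.87, SE 0.43, adjusted p = 0.0359, limma). In GENCODE vM21, 63.7% of its exons are shared with other genes on the same strand, Gm42878 and Mapkapk5. That gene model has other coordinates than the deposited one, and its 7508 exon bases exceed the span given above. The share in the counted gene is thus not known, and the value of Adam1a is uncertain. Adam33 (ENSMUSG00000027318, chromosome 2, 131050591 to 131063814, minus strand), an ADAM of mesenchymal cells, had 47.8 and 62.3 with LTK-14A, 87.7 and 86.1 with DMSO and 94.5 and 110.1 in untreated cells. It was lowest with LTK-14A and fell against untreated cells (log2 fold change -0.89, SE 0.22, adjusted p = 0.0390, limma), with a log2 fold change of -0.66 against DMSO (adjusted p = 0.105).

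Against untreated cells, Adam8 rose by 1.67 on the log2 scale (adjusted p = 0.0133, limma), Adam23 rose by 0.56 (adjusted p = 0.0227) and Adam12 fell by 0.67 (adjusted p = 0.0465). Adam9, with a log2 fold change of 0.54 (adjusted p = 0.0628), and Adam1a, with -1.42 (adjusted p = 0.0748), did not pass there. The calls against DMSO were lost without each of the LTK-14A and DMSO libraries for Adam8 (adjusted p 0.0979 to 0.151), Adam9 (0.143 to 0.214), Adam23 (0.205 to 0.257), Adam12 (0.119 to 0.190) and Adam1a (0.0928 to 0.205). Those against untreated cells did not hold when either LTK-14A library was left out, for Adam8, Adam23, Adam12 and Adam33 (adjusted p up to 0.251, for Adam12), and also without untreated replicate 1 for Adam12 and untreated replicate 2 for Adam33.

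The main general sheddases did not pass in any comparison. Adam17, which releases tumour necrosis factor and epidermal growth factor receptor ligands, had 658 and 712 with LTK-14A, 659 and 749 with DMSO and 613 and 632 in untreated cells. These values overlapped between LTK-14A and DMSO (log2 fold change -0.04, SE 0.12, adjusted p = 0.894, limma). Adam10, the main sheddase of Notch receptors, had 782 and 769.5 with LTK-14A, 654 and 651 with DMSO and 608 and 465 in untreated cells, highest with LTK-14A without passing (log2 fold change 0.25, SE 0.15, adjusted p = 0.351, limma). Against untreated cells Adam10 came close to the threshold (log2 fold change 0.54, adjusted p = 0.0530, limma). Adam15 had 740.4 and 751 with LTK-14A, 679.8 and 676 with DMSO and 609.7 and 772 in untreated cells, with small differences between all 6. Adam19 had 245 and 325 with LTK-14A, 198 and 212 with DMSO and 200.2 and 235 in untreated cells (log2 fold change 0.46, SE 0.18, adjusted p = 0.155, limma). Of the low members, Adam21 had 7.20 and 9.16 with LTK-14A, 2.95 and 0 with DMSO and 4.85 and 1.11 in untreated cells, with a wide error at this level (log2 fold change 2.20, SE 0.84, adjusted p = 0.146, limma). Most ADAM genes left out are known mainly from testis, and of the 13 ADAM rows on chromosome 8 only Adam9 and Adam32, whose genes lie 0.806 kb apart, were detected.

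**Figure D4:**
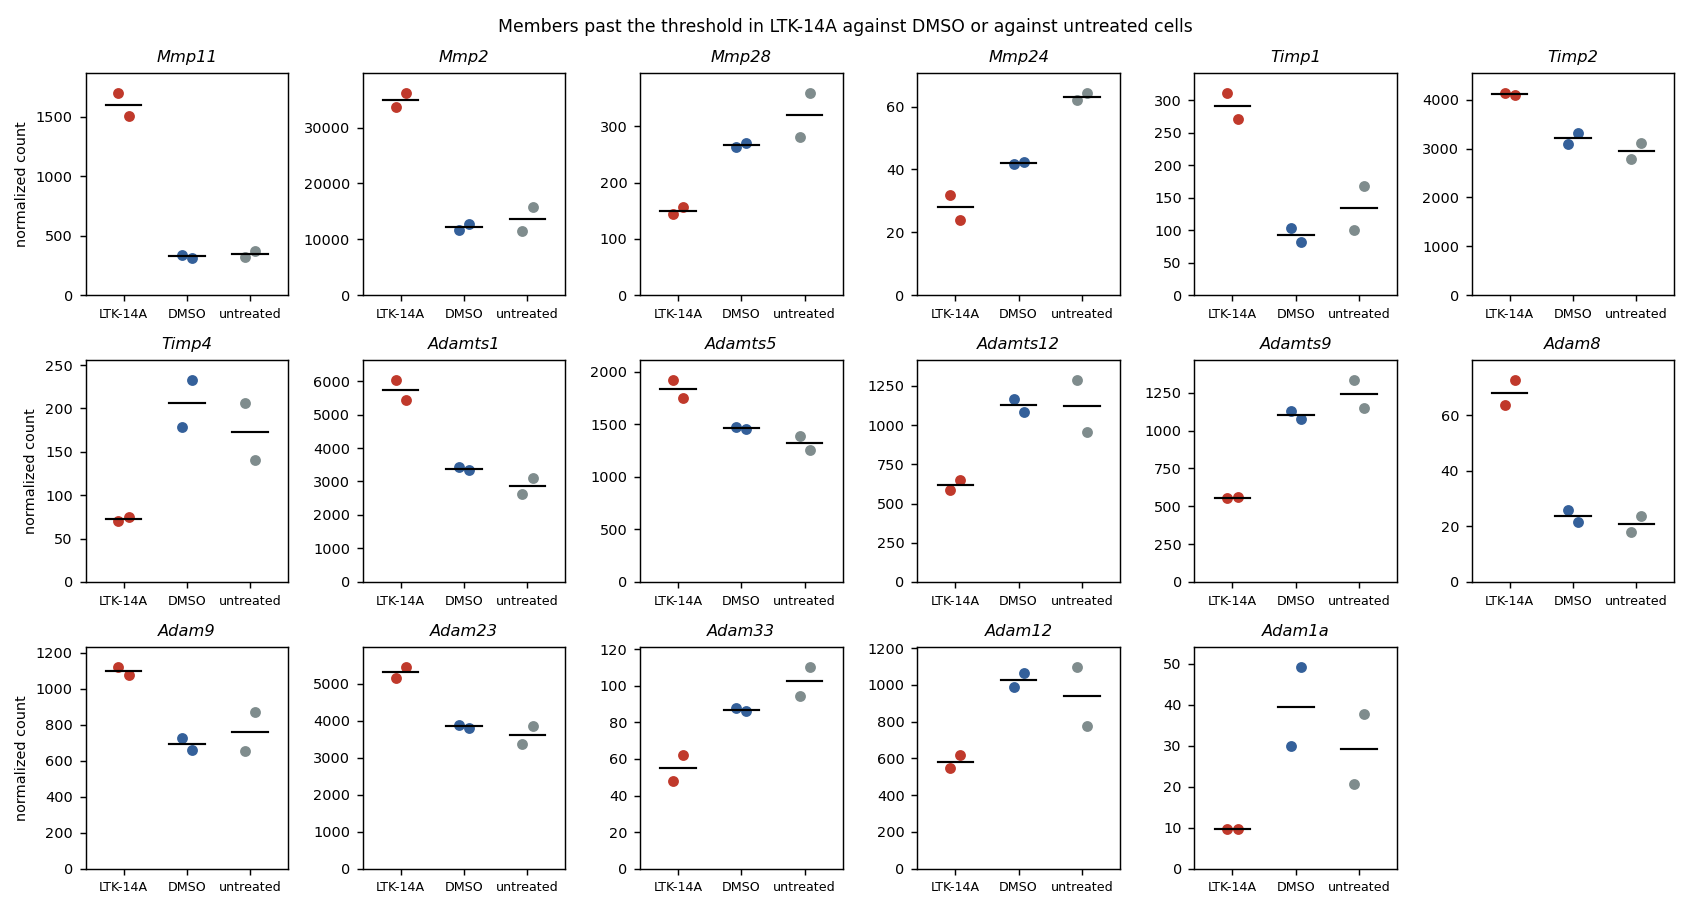
Normalized counts of the 17 members past the threshold in LTK-14A against DMSO or against untreated cells, with each sample as a point and the group mean as a line; each panel has its own axis from 0. In all 17 panels, which were picked by tests on these same samples, both LTK-14A samples lie outside the range of the other 4. The same holds for 30 of the 51 members and 38.2% of all genes tested.

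Against untreated cells, 15 of the 51 members passed, 8 higher and 7 lower, against a background of 12.9% of all genes tested (4.68% higher and 8.17% lower). That comparison shares the LTK-14A libraries with the one against DMSO. Of the 17 members called in either, 11 were called in both, Adam9 and Adam1a against DMSO only, and Timp2, Adamts5, Adam33 and Mmp24 against untreated cells only. Whether those contrasts differ was tested only as DMSO against untreated cells, given next. Without either DMSO library, which takes no sample of the comparison away but a degree of freedom, 8 of the 15 calls against untreated cells were kept, and Timp1, Timp2, Adamts5, Adam23, Adam33, Mmp24 and Adam12 were lost (adjusted p 0.0566 to 0.0951, limma). Leaving out untreated replicate 2 gave 16 members called against untreated cells. The groups did not overlap for 32 members, against 53.6% of all genes tested. Both LTK-14A values lay outside all 4 others for 30 of the 51 members, 17 higher and 13 lower, while 38.2% of all genes tested did so.

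DMSO against untreated cells gave 0 calls among the 51 members in limma, and 0 had an unadjusted p under 0.05. Of all 24139 genes tested, 0.0249% passed and 1408 had an unadjusted p under 0.05. The smallest adjusted p among the members was 0.804, and without untreated replicate 2 the count was again 0. Among the members, 13 had both DMSO values on the same side of both untreated values, as did 33.1% of all genes tested. The log2 fold changes lay between -0.82 and 1.26, with the extremes at the low genes Adam21 and Adam22. Untreated samples differed more from each other than the rest: among the 35 members with a mean of at least 20, the ratio of the higher to the lower replicate had a median of 1.11 with LTK-14A, 1.08 with DMSO and 1.29 in untreated cells.

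Several other systems that act with these proteases were followed in LTK-14A against DMSO. In that comparison 10.6% of all genes tested passed, and 17.1% of those with a mean of at least 20. An unadjusted p under 0.05 (limma) was found for 6345 of all 24139 genes tested. The list counts below stand beside these shares and were not tested against them. In the plasminogen activator system, which also activates pro-MMPs, 2 of 9 tested genes rose and 0 fell. Serpine2, an inhibitor of thrombin and plasminogen activators, rose by 1.30 on the log2 scale (adjusted p = 0.00184, limma), and Thbd, the thrombin receptor thrombomodulin, by 0.50 (adjusted p = 0.0311). The activator genes did not pass, with a log2 fold change of 1.13 for Plau (adjusted p = 0.0828) and 0.33 for Plat (adjusted p = 0.194).

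Of 5 other metzincins tested, 2 rose, both of them pappalysins, which cut insulin-like growth factor binding proteins. Pappa2 had 235 and 283 with LTK-14A, 51.4 and 23.9 with DMSO and 47.5 and 41.2 in untreated cells, the LTK-14A samples far above the rest (log2 fold change 2.84, SE 0.35, adjusted p = 0.00301, limma). Pappa had 478 and 544 with LTK-14A, 263 and 235 with DMSO and 219 and 188 in untreated cells, separated in the same way (log2 fold change 1.03, SE 0.15, adjusted p = 0.00607, limma). Bmp1, the procollagen C-proteinase, had a log2 fold change of 0.13 (adjusted p = 0.735, limma). Among other pericellular proteases, 3 of 9 rose and 0 fell: the lysosomal proteases Ctsl (log2 fold change 1.41, adjusted p = 0.00101) and Ctsb (0.48, adjusted p = 0.0337) and the secreted serine protease Htra1 (1.51, adjusted p = 0.0479).

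Other inhibitors and enhancers of matrix proteases gave 0 calls among 10 tested genes in limma, with 3 at an unadjusted p under 0.05. The cysteine protease inhibitor Cst3 had 2967 and 2842.5 with LTK-14A, 2272 and 2068 with DMSO and 2152 and 2405 in untreated cells (log2 fold change 0.42, SE 0.12, adjusted p = 0.0625, limma). Pcolce2, an enhancer of procollagen C-proteinase, had 3.58 and 4.58 with LTK-14A and 3.57 and 11.8 in untreated cells and was listed at 0 in both DMSO samples, without passing (adjusted p = 0.0693, limma). The membrane-anchored MMP inhibitor Reck had 271 and 241 with LTK-14A, 211 and 140.1 with DMSO and 204 and 188 in untreated cells, higher with LTK-14A without passing (log2 fold change 0.57, SE 0.21, adjusted p = 0.136, limma). ADAMTS-like proteins gave 0 calls among 5 (0 at an unadjusted p under 0.05), and the proprotein convertases, which remove the propeptide of many MMP and ADAM proteins, 0 among 6 (2 at an unadjusted p under 0.05). Among iRhoms and TspanC8 tetraspanins, the partners that carry Adam17 and Adam10 to the cell surface, 1 of 7 rose, Tspan5 (log2 fold change 1.18, adjusted p = 0.0228, limma), and 1 fell, Tspan14 (-0.76, adjusted p = 0.0307).

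Matrix proteins other than collagens that these enzymes cut were also tested, and 5 of 14 rose and 1 fell. Those 14 include Has2, a hyaluronan synthase and not a matrix protein, which did not pass. Fibronectin (Fn1), itself one of the fibroblast markers, had 33277 and 33981 with LTK-14A, 11442 and 11306 with DMSO and 13157 and 14030 in untreated cells, higher with LTK-14A than in all other samples (log2 fold change 1.56, SE 0.13, adjusted p = 0.000524, limma). The basement membrane linker Nid1 rose by 1.27 on the log2 scale (adjusted p = 0.00162, limma), the matricellular protein Thbs1 by 0.99 (adjusted p = 0.00503) and the microfibril protein Fbn1 by 0.64 (adjusted p = 0.0405). The gene that fell, elastin (Eln), was listed at 0 in both LTK-14A samples, against 4.29 and 3.65 with DMSO and 1.17 and 2.24 in untreated cells. In DMSO against untreated cells, 0 of the 133 genes tested over all lists passed in limma, and 8 had an unadjusted p under 0.05. Over all 24139 genes tested, 1408 had an unadjusted p under 0.05 there.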

How the data were processed

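Total RNA of 6 samples of differentiated 3T3L1 cells was depleted of ribosomal RNA and made into stranded libraries, per the labels' protocols. The authors deposited 1 table with a value per gene and sample, and mm10 is the genome build in the submitters' processing notes. The deposited values read as a log10 taken of log2 normalized counts, as the values themselves show, since no header states it. Values were transformed back, and a deposited 0 was kept as 0, a placeholder for at most 1. No source used here names the counter and its use of strand, the aligner or the normalization. Of values under 100 times the smallest common value, only 16.8% to 20.1% were whole multiples of it (tolerance 0.01), so reads were not recovered, no count test was run and no counting interval is given.

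The fit covered the 24139 genes that reached a value of 1 in 2 or more samples. The analysis used log2(value + 1), which understates the change of low genes, and limma 3.58.1 under R 4.3.3. The model had 3 group means over all 6 samples, no replicate block and a trend of variance with mean. Tests were in both directions with Benjamini-Hochberg adjustment over all genes kept at 0.05. The steps were tested on simulated data. Exon lengths and overlaps came from GENCODE vM21, and upstream sequence from RefSeq (GRCm38.p6). In GENCODE vM21, 49 of 51 members had the same coordinates, all but Adam1a and Adamts5. Python 3.11.15, numpy 2.4.6, pandas 2.3.3 and matplotlib 3.10.9 were used.

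The members and 16 further gene lists were chosen with earlier results of these data known. One gene of these lists is not reported here and is not in their counts. By rule, values per sample were given for TIMP genes, members past the threshold in any comparison and members with a mean of at least 1000, and up to 4 genes of a further list were named by smallest adjusted p. Other members with values per sample, the synapsin genes and Plau, Plat, Bmp1, Vcan and Eln were named after their values were seen. Alternatives were quantile normalization, rescaling without ribosomal and small RNA loci, no trend, a pseudocount of 0.1, no filter, a mean of at least 20, a replicate block, the compared groups alone and leaving out each library. Replicate numbers did not pair the samples: across 13179 genes, the differences between replicates correlated at 0.05 between LTK-14A and DMSO, -0.02 between LTK-14A and untreated and 0.17 between DMSO and untreated, and no label ties a number to a shared batch.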

Additional observations from a re-analysis of the deposited data

How the results depend on the processing

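Of the 34 values of named members recomputed, 0 changed sign under the alternatives run, but many lost their call. The counts of calls moved, as given below. The median log2 fold change over all genes did turn: in LTK-14A against DMSO it was -0.05 as reported and 0.03 after quantile normalization, and in LTK-14A against untreated cells -0.03 and 0.04. Without the variance trend, 1205 genes and 3 members passed in LTK-14A against DMSO (2548 and 13 in the analysis as reported) and 1387 genes and 4 members in LTK-14A against untreated (3103 and 15). With the compared groups alone, 2044 genes and 8 members passed against untreated, and DMSO against untreated gave 0 genes, against 6 as reported and 3 with a pseudocount of 0.1. Leaving out 1 library gave 591 to 3629 genes and 2 to 17 members in LTK-14A against DMSO, 867 to 4016 genes and 3 to 16 members in LTK-14A against untreated, and 0 to 109 genes and 0 members in DMSO against untreated. With the replicate block, where numbers are not known to pair samples, 2635 genes and 12 members passed in LTK-14A against DMSO, 3269 and 16 against untreated, and 5 and 0 in DMSO against untreated. Over the 34 values of named members, calls were lost for 21 without the trend, 7 with the groups alone, 4 after quantile normalization, 3 with a pseudocount of 0.1, 2 after rescaling, and 1 each with no filter and with the block. Calls were gained for 3 with the groups alone and 1 with a mean of at least 20. Members given above as not passing are thus not all without a call under every setting. Leaving out 1 library lost 82 and added 6 of 204 such values. The cause of these losses was not tested, beyond fewer samples where a library was left out. With 2 samples a group, members with a mean under 20 had standard errors of 0.47 to 1.03 on the log2 scale in LTK-14A against DMSO, which limits what could pass there.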

Other observations

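A list of 12 genes was drawn up for AP-1 and ETS factors, transcription factor families known to act on MMP promoters. Of these 12, 3 rose and 0 fell in LTK-14A against DMSO, where 10.6% of all genes tested passed. Fosl2 had 1483 and 1404 normalized counts with LTK-14A, 879 and 922 with DMSO and 879.7 and 889.8 in untreated cells (log2 fold change 0.68, SE 0.11, adjusted p = 0.00827, limma). Ets2 had 1519 and 1449.6 with LTK-14A, 904 and 918 with DMSO and 711 and 838 in untreated cells (log2 fold change 0.70, SE 0.12, adjusted p = 0.0123, limma). For both genes the LTK-14A samples were above all others. Junb rose by 0.95 on the log2 scale (adjusted p = 0.0430, limma). Egr1, on that list but of neither family, had 115 and 176 with LTK-14A, 266 and 229 with DMSO and 247 and 223 in untreated cells. It was lower with LTK-14A without passing (log2 fold change -0.79, SE 0.22, adjusted p = 0.0641, limma). No AP-1 motif was found in the upstream windows of the 5 members that rose and had a window, nor of the 5 that fell. As 6.75% of all promoters hold the motif, 10 windows are too few to read that absence. Mmp2, Adam9 and Adam12 had no window.

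Of 22 tested membrane proteins that ADAM proteases are known to shed, 3 rose and 2 fell in LTK-14A against DMSO. There 10.6% of all genes tested passed, and 17.1% of those with a mean of at least 20. Several of the 22 had a lower mean. The amyloid precursor App had 3544 and 3301 with LTK-14A, 1805 and 2021 with DMSO and 1824 and 2504 in untreated cells, highest with LTK-14A (log2 fold change 0.84, SE 0.16, adjusted p = 0.0196, limma). Dlk1, the preadipocyte protein whose shed ectodomain inhibits fat cell formation and one of the fibroblast and preadipocyte markers, had 5359.5 and 5214 with LTK-14A, 3171 and 3141 with DMSO and 3035.5 and 4515.5 in untreated cells, with untreated replicate 2 near the LTK-14A samples (log2 fold change 0.74, SE 0.18, adjusted p = 0.0423, limma). Notch1 had 151 and 178 with LTK-14A, 361 and 369.6 with DMSO and 294 and 457 in untreated cells, the LTK-14A samples being the lowest (log2 fold change -1.15, SE 0.22, adjusted p = 0.0166, limma). Il6ra, the interleukin 6 receptor, fell by 0.92 on the log2 scale (adjusted p = 0.0295, limma).

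Epithelial and endothelial markers were low. None of 5 epithelial markers reached the minimum, and 3 of 6 endothelial markers were tested with 0 calls in LTK-14A against DMSO (limma, 1 at an unadjusted p under 0.05), their summed values being 4.89 and 9.15 with LTK-14A, 20.2 and 6.70 with DMSO and 11.2 and 6.68 in untreated cells. Of 4 tested muscle and mural markers, 0 rose and 2 fell in LTK-14A against DMSO, where 10.6% of all genes tested passed. The intermediate filament gene Des had 30.6 and 22.0 with LTK-14A, 103 and 117 with DMSO and 111 and 186 in untreated cells (log2 fold change -2.04, SE 0.30, adjusted p = 0.00625, limma). Myh11, the smooth muscle myosin heavy chain, had 10.1 and 9.16 with LTK-14A, 35.5 and 24.2 with DMSO and 55.7 and 37.3 in untreated cells (log2 fold change -1.51, SE 0.38, adjusted p = 0.0466, limma). Acta2, smooth muscle actin, had 3700.5 and 3182 with LTK-14A, 2218 and 1988 with DMSO and 1663 and 2439 in untreated cells, higher with LTK-14A without passing (log2 fold change 0.71, SE 0.19, adjusted p = 0.0560, limma).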
